A study of Homo sapiens with 4 samples.

Results

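In HCT116 cells, a line from a human colorectal carcinoma, a set of 140 gene rows lay further towards heavy polysomes in the cells labelled as a Dicer1 knockout than in wild type cells. Cytoplasmic extracts were spread on sucrose gradients, and RNA of 2 parts of each gradient was sequenced. The groups were labelled knockout heavy polysomes, labelled knockout light polysomes, wild type heavy polysomes and wild type light polysomes, with heavy meaning 10 or more ribosomes per mRNA and light 9 or fewer. Each of the 4 groups had 1 library, and the heavy and light libraries of a genotype are parts of 1 gradient, so that no difference between genotypes has a replicate check and no p-value is given. How the knockout was made, and whether it is 1 clone, is not given in the sources used here.

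The set was chosen by the value that names it. A row had to hold at least 50 counts in each library, which 10834 of the 26364 rows of the count table did. For each such row the log2 ratio of heavy to light was taken in each genotype, after adding 2 to every count and dividing by the total of its library. The difference of these ratios, labelled knockout minus wild type, less the median of this difference over all rows (0.09), is called the shift here. A shift of 1 means that the heavy to light ratio rose 2-fold more from wild type to labelled knockout than it did in the median row. A shift of 1 or more was reached by 1.3% of the rows (141 of 10834). Of these, 140 are described and 1 is not reported here. The same minimum applied to each library, so that mRNAs missing from 1 of the 4 libraries could not enter. Because the shift chose the members, their shifts, heavy to light ratios and genotype ratios below are a description.

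Members just inside the threshold were TRAPPC10 at 1.0019, TMEM74B at 1.0033 and POPDC3 at 1.0045. Rows just outside it were GPR173 at 0.998, CCNJ at 0.996 and MBTPS1 at 0.996. The counting intervals of these rows span the threshold, and the border is a cut through a continuous range.

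Polysomes are mRNAs that carry several ribosomes, and a sucrose gradient sorts them by that number. How many ribosomes an mRNA carries depends on the length of its coding region, on how often ribosomes start and on how fast they move. An ATG in the 5′ untranslated region (5′ UTR), ahead of the start of the main coding region, can be used as a start of its own. Ribosomes that translate such an upstream open reading frame often fail to reach the main one, which can keep the number of ribosomes on such an mRNA low. DICER1 cuts microRNA precursors, and mature microRNAs pair through their seed with sites in 3′ UTRs and lower the translation and stability of those mRNAs.

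DICER1 mRNA itself went against the label. It had 925 counts in the heavy and 889 in the light polysomes of the labelled knockout, against 500 in the heavy and 547 in the light polysomes of the wild type. Its log2 ratio of labelled knockout over wild type was 1.01 in heavy and 0.87 in light polysomes, and its shift was 0.04. Counts per gene do not show whether the altered gene still makes a working enzyme, and the libraries are called labelled knockout throughout. Library totals lay between 17457116 and 20933675 counts, and ribosomal RNA took 4.32% and 5.97% of the counts in labelled knockout heavy and light polysomes, against 2.61% and 3.59% in wild type heavy and light polysomes. Of 9 epithelial marker genes 7 had at least 50 counts in each library, among them EPCAM and KRT8, and the 2 others, LGALS4 and VIL1, had at most 1 count. Of 14 markers of stromal, endothelial and blood cells 4 were at 0 in all libraries and only COL1A1 reached 50 counts in each, with sums over the 14 of 942 and 327 counts in labelled knockout heavy and light polysomes, against 489 and 228 in wild type heavy and light polysomes.

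The sequences below show a feature that most coding members had in common although the rule did not use it, an ATG in the 5′ UTR. They are 21-base windows of the first upstream ATG that lies with its window in 1 exon, from GENCODE 44 transcripts on GRCh38, for 6 of the members with the largest shifts among those with at least 800 counts in all, and for ODC1, the member with the highest count. The upstream ATG is in capitals.
LEPR: tcgggagacATGgcgggcgtt
KIAA2018: cctgggatcATGacccaggcg
RC3H2: tagctcccgATGgagtttgag
ATP8B2: gcccccggcATGggcagtacg
FAM217B: aaacccgagATGatgatcagc
TAF4B: tatataaacATGgctggcgtg
ODC1: cgcttccccATGgggctggcc

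These windows lie at chr1:65420716-65420736 on the plus strand for LEPR, chr3:113696422-113696442 on the minus strand for KIAA2018 and chr9:122905226-122905246 on the minus strand for RC3H2. They lie at chr1:154325645-154325665 on the plus strand for ATP8B2, chr20:59942437-59942457 on the plus strand for FAM217B, chr18:26226450-26226470 on the plus strand for TAF4B and chr2:10448143-10448163 on the minus strand for ODC1. The upstream ATG stood 112 bases ahead of the coding start in LEPR, 198 in KIAA2018, 195 in RC3H2, 86 in ATP8B2, 71 in FAM217B, 475 in TAF4B and 161 in ODC1. LEPR has 4 such ATGs in its annotated 5′ UTR of 169 bases, FAM217B has 3 in 349 bases, and ODC1 has 1 in 334 bases. MFHAS1, which had the largest shift, has 4 in 572 bases.

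The second set of sequences shows the microRNAs whose sites were counted in the members' 3′ UTRs, with the seed, bases 2 to 8, in capitals (mature sequences from RefSeq, GRCh38.p14). The miR-17 family is shown because its sites were in more members than those of the other families, miR-19 and miR-26 because theirs were the most frequent per base relative to all coding rows, and let-7a as a widely studied family.
hsa-miR-17-5p: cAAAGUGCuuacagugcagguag
hsa-miR-19a-3p: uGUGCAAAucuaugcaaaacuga
hsa-miR-26a-5p: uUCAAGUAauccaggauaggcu
hsa-let-7a-5p: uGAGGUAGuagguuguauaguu

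MFHAS1, a leucine-rich repeat protein with a GTPase domain (chr8:8783354-8893630 on GRCh38, minus strand), had the largest shift of all rows that passed. It had 383 counts in the heavy and 347 in the light polysomes of the labelled knockout, against 208 in the heavy and 612 in the light polysomes of the wild type. As CPM, the counts scaled to equal library totals, it had 19.9 and 19.9 in labelled knockout heavy and light polysomes, against 9.94 and 31.0 in wild type heavy and light polysomes. The mRNA was thus even between the fractions of the labelled knockout and light in the wild type. Its shift was 1.54, with a 95% interval of 1.23 to 1.85 that covers counting error only, since reads that carry no molecular identifier cannot be taken as single molecules.

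Few members were measured as well as ODC1, the rate-limiting enzyme of polyamine synthesis (chr2:10439968-10448327, minus strand). It had 9054 counts in the heavy and 9393 in the light polysomes of the labelled knockout, against 5722 in the heavy and 14293 in the light polysomes of the wild type. By library totals its CPM was higher in light than in heavy polysomes of both genotypes. The log2 heavy to light ratios were -0.19 in the labelled knockout and -1.41 in the wild type. The ratio in the labelled knockout is small, and how far it lies from even depends on the scaling. Its shift of 1.12 had the narrowest counting interval of the set, 1.06 to 1.18.

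**Figure D1:**
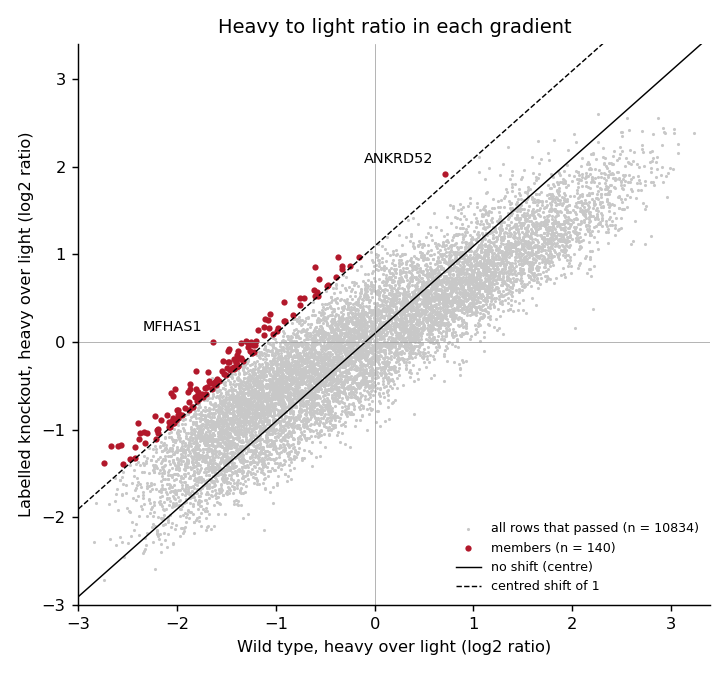
Each point is a gene row, with the log2 heavy to light ratio in wild type cells across and that in the labelled knockout up the page, for the 140 members in colour and all rows that passed in grey, with a solid line at no shift and a dashed line at a shift of 1. Members lie above and to the left of most rows, at a median of -0.34 in the labelled knockout and -1.56 in the wild type, and 139 of 140 lie below 0 in the wild type.

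The 140 shifts ran from 1.002 to 1.54 with a median of 1.08, so that most members sat close to the threshold. The counting interval of the shift lay above 0 in 140 members, above 0.5 in 122 and above 1 in 5. Members were weakly expressed. Their counts summed over the 4 libraries had a median of 1100, against 3013 over all rows, and the median distance from the shift to the end of its interval was 0.37, against 0.22. The sum was 800 or more in 90 members, and the mean count lay under 100 in 9 members, against 2.52% of all rows.

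In wild type cells members were light. The log2 ratio of heavy to light had a median of -0.34 in the labelled knockout, from -1.39 to 1.92, and -1.56 in the wild type, from -2.74 to 0.71. Over all rows the medians were -0.07 in the labelled knockout and -0.25 in the wild type. A ratio of -1 or less was held by 16 members in the labelled knockout, where 15.8% of all rows had one, and by 116 members in the wild type, where 27.8% of all rows had one. A ratio above 0 was held by 35 members in the labelled knockout, of which 34 were below 0 in the wild type, and by 1 member in the wild type. The other 105 members had the higher CPM in the light library of the labelled knockout. These counts use library totals. With TMM scaling, which sets the bulk of rows equal, 49 members lay above 0 in the labelled knockout and 136 below 0 in the wild type, and the median of all rows moved from -0.07 to 0.12 in the labelled knockout and from -0.25 to 0.08 in the wild type.

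The ratios of all rows were more alike in the labelled knockout. Their standard deviation over rows was 0.90 on the log2 scale in the labelled knockout and 1.17 in the wild type. A line fitted over all rows gave a labelled knockout ratio of 0.05 plus 0.71 times the wild type ratio, so that rows light in the wild type had positive shifts on average. The distance of a member above that line had a median of 0.69, from 0.35 to 1.36, against a standard deviation of 0.36 over all rows. It was 1 or more in 10 members, and at least 2 standard deviations in 62. With 1 gradient per genotype, the part of this narrower spread in any member's shift cannot be told apart from a change of that mRNA. Fractions are also pools of all cells, and fewer cells with an mRNA and less of it per cell cannot be told apart.

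**Figure D2:**
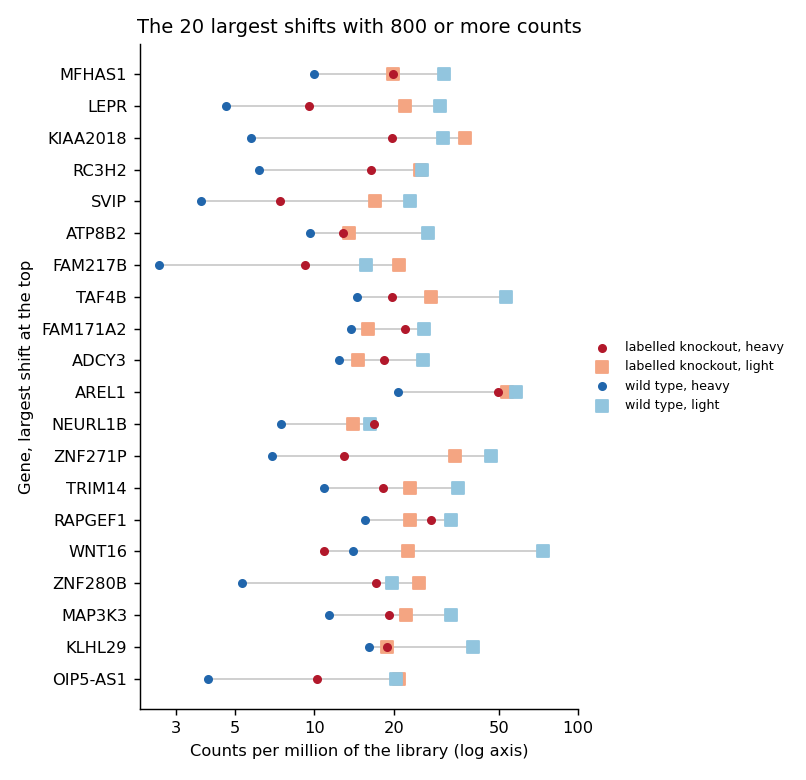
CPM on a log axis in the 4 libraries are drawn for the 20 largest shifts among members with 800 or more counts, circles for heavy and squares for light polysomes. The wild type heavy circle is the lowest of the 4 points in each row but WNT16, where the labelled knockout heavy circle is lower. For MFHAS1, ATP8B2 and KLHL29 the labelled knockout circle lies on or beside its square.

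Set against each other within a fraction, the genotypes differed in both fractions for most members. The log2 ratio of labelled knockout over wild type had a median of 0.75 in heavy polysomes, from -0.70 to 2.19, and of -0.45 in light polysomes, from -1.81 to 0.99. Over all rows these medians were 0.03 and -0.06. In the labelled knockout 114 of the 140 members were higher in heavy and lower in light polysomes, where 23.3% of all rows were, 17 were higher in both and 9 lower in both. The heavy part of the difference was the larger one in 90 members and the light part in 50. A ratio of 2-fold or more higher in heavy polysomes was reached by 34 members (3.24% of all rows) and 2-fold or more lower in light polysomes by 18 (3.02% of all rows). No member had both, and 88 had neither, so that their shift was the sum of smaller differences in each fraction. With TMM scaling the 114 became 106, the 34 became 31 and the 18 became 11. The mean of the genotype ratios of both fractions, weighted alike, had a median of 0.16 in members, against -0.0048 over all rows. It was 1 or more in 8 members and -1 or less in 4. Each fraction was scaled to its own library total, so that this mean does not measure the total amount of an mRNA.

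Among members with 800 or more counts, the 5 largest genotype ratios in heavy polysomes came with a higher amount in both fractions. ANKRD52, a regulatory subunit of the protein phosphatase that dephosphorylates Argonaute proteins of the microRNA pathway, had 2396 counts in the heavy and 575 in the light polysomes of the labelled knockout, against 569 in the heavy and 327 in the light polysomes of the wild type. By library totals ANKRD52 was the 1 member that was heavy in both genotypes. With TMM scaling 136 of the 140 members were light in the wild type, against 139 by library totals, so that it was then not the only one. The log2 ratio of labelled knockout over wild type of ANKRD52 was 2.19 in heavy and 0.99 in light polysomes. TET3, an oxidase of methylated cytosine in DNA, had 578 and 319 counts in labelled knockout heavy and light polysomes, against 169 and 236 in wild type heavy and light polysomes. FAM217B had 178 and 367 counts in labelled knockout heavy and light polysomes, against 54 and 310 in wild type heavy and light polysomes. Both mRNAs had higher levels in both fractions of the labelled knockout, with the larger difference in heavy polysomes. KIAA2018, which current annotation names USF3, a basic helix-loop-helix protein, followed with 19.6 and 37.3 CPM in labelled knockout heavy and light polysomes, against 5.78 and 30.8 CPM in wild type heavy and light polysomes. UHMK1, a kinase with an RNA-binding motif, had 2285 and 5180 counts in labelled knockout heavy and light polysomes, against 762 and 3858 in wild type heavy and light polysomes, and was light in both genotypes.

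At the other end were the 5 lowest genotype ratios in light polysomes, again among members with 800 or more counts. KLF4, a transcription factor of epithelial differentiation, had 466 counts in the heavy and 511 in the light polysomes of the labelled knockout, against 825 in the heavy and 2030 in the light polysomes of the wild type. It was lower in both fractions of the labelled knockout, by log2 ratios of -0.70 in heavy and -1.81 in light polysomes. WNT16, a secreted Wnt ligand, had 210 and 394 counts in labelled knockout heavy and light polysomes, against 294 and 1445 in wild type heavy and light polysomes. LPAR3, a receptor for lysophosphatidic acid, had 6.39 and 9.28 CPM in labelled knockout heavy and light polysomes, against 8.89 and 31.3 CPM in wild type heavy and light polysomes. All 3 were lower in both fractions of the labelled knockout, and by more in light than in heavy polysomes. TIGD2, a protein derived from a transposase, had 16.4 and 17.1 CPM in labelled knockout heavy and light polysomes, against 15.4 and 37.7 CPM in wild type heavy and light polysomes. KLHL29, a Kelch protein, had 18.9 and 18.8 CPM in labelled knockout heavy and light polysomes, against 16.1 and 40.1 CPM in wild type heavy and light polysomes. These 2 mRNAs had close heavy levels in both genotypes and differed in light polysomes.

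**Figure D3:**
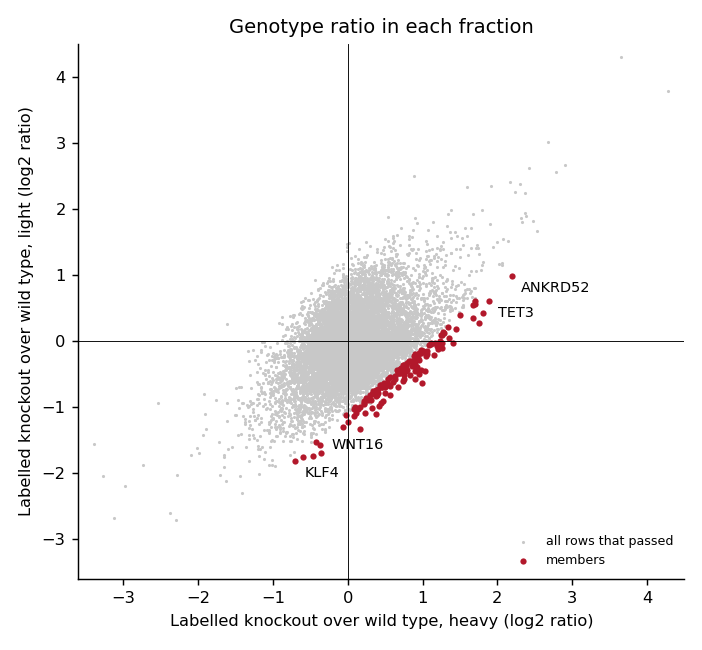
For each row the log2 ratio of labelled knockout over wild type in heavy polysomes runs across and that in light polysomes up the page, with members in colour and all rows that passed in grey. The members form a band along the lower right edge, with 114 of 140 at higher heavy and lower light values, ANKRD52 and TET3 at its upper end and KLF4 at its lower end.

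The shared feature lay in the annotated 5′ UTR. Of 127 members with an annotated coding transcript, 86.6% (110, Wilson 95% interval 79.6 to 91.5%) had at least 1 upstream ATG, against 39.5% of all 10586 coding rows that passed. At least 2 upstream ATGs were found in 55.9% of members and 20.2% of all coding rows, at least 3 in 36.2% and 11.2%, and at least 5 in 13.4% and 4.38%. Other light rows had a lower share. Among the 2745 other coding rows with a wild type heavy to light log2 ratio of -1 or less, 53.6% had an upstream ATG. Rows with the opposite shift, -1 or less, which were 1.7% of all rows, stood at the other end, with an upstream ATG in 6.67% of 180 coding rows (12). Only the sense strand of the transcript was searched, in any frame, and 1 transcript per gene was used, the MANE Select one or else the Ensembl canonical one, which need not be the transcript that HCT116 cells make. No test is given, since genes are not replicates of a condition. The share depended on how the rows were chosen. It was 71.0% among the 140 rows furthest above the line over all rows, of which 47 were members. In a mixed library, wild type heavy counts replaced 27.7% of the wild type light library, both scaled to the same total. Among the 140 largest shifts with it the share was 63.7%, and 62 of these rows were members.

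Members also had long 5′ UTRs. The median length was 261 bases in members, 75 in rows with the opposite shift, 165 in the other light rows and 136 in all coding rows. A longer sequence holds more ATGs, and per 100 bases of 5′ UTR members held 0.810 of them, opposite rows 0.114, other light rows 0.645 and all coding rows 0.493. The density was thus higher in members too. Most of the upstream open reading frames closed before the main start: 75.6% of members (96) had at least 1 of this kind, against 33.3% of all coding rows. One that overlapped the main start in another frame was present in 35.4% of members (45), against 11.97% of all coding rows. An upstream ATG in the strong sequence context, a purine 3 bases ahead and a G right after, was present in 34.6% of members (44), 0 of 180 opposite rows and 14.1% of all coding rows. Of the windows shown above, those of LEPR, ATP8B2 and TAF4B are of this kind.

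**Figure D4:**
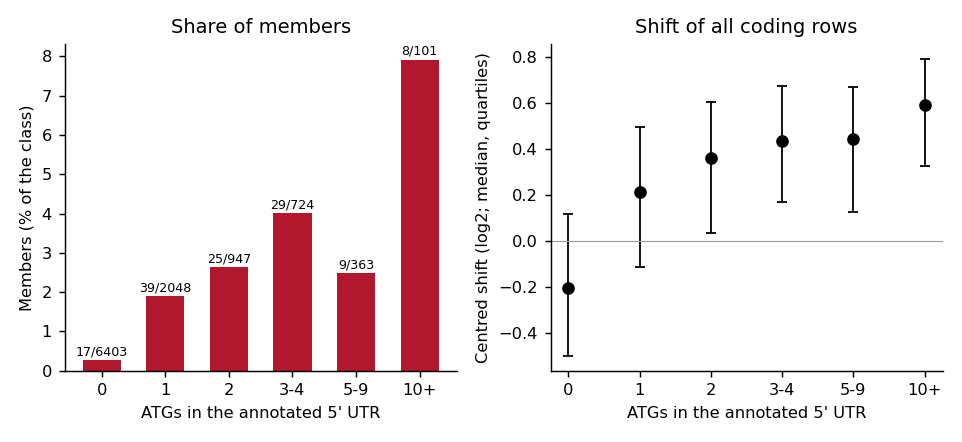
The median shift of all coding rows, with its quartiles, and the percent of rows that are members are drawn by the number of upstream ATGs in the annotated 5′ UTR. The median runs from -0.20 for rows with 0 to 0.59 for rows with 10 or more, and the percent of members from 0.266% to 7.92%.

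The relation was not limited to the members. Across all coding rows the median shift was -0.20 in 6403 rows with 0 upstream ATGs, 0.22 with 1, 0.36 with 2, 0.43 with 3 or 4, 0.44 with 5 to 9 and 0.59 in 101 rows with 10 or more. The percent of rows that were members followed, at 0.266%, 1.90%, 2.64%, 4.01%, 2.48% and 7.92% in the same order. Across the 10586 coding rows the Spearman correlation of the shift was 0.477 with the number of upstream ATGs, 0.448 with the 5′ UTR length, 0.233 with the 3′ UTR length and 0.011 with the coding length. These points are genes of the same 4 libraries and not replicates. The wild type ratio correlated with the shift at -0.676, and it is also part of the shift.

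Rows with many upstream ATGs were also light in the wild type. The median heavy to light log2 ratio by class, from 0 to 10 or more upstream ATGs, was 0.07, -0.12, -0.29, -0.23, -0.31 and -0.51 in the labelled knockout and 0.13, -0.47, -0.78, -0.79, -0.87 and -1.13 in the wild type. The classes thus lay closer together in the labelled knockout. Measured from the line over all rows, which takes the wild type ratio into account, the median distance was -0.11 for rows with 0, 0.11 with 1, 0.19 with 2, 0.24 with 3 or 4, 0.22 with 5 to 9 and 0.24 with 10 or more. Among rows already light in the wild type, the median shift was 0.17 with 0 upstream ATGs and 0.67 with 10 or more, at wild type ratios of -1.42 and -1.51. Members made up 1.01% of these light rows with 0 upstream ATGs and 11.9% of those with 10 or more (7 of 59).

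Rows with an upstream ATG had the higher median shift in each of 5 classes of 5′ UTR length. From 200 to under 400 bases, the 1585 coding rows with an upstream ATG had a median shift of 0.36 and held 47 members, and the 861 without had a median of 0.01 and held 3. From 100 to under 200 bases, the medians were 0.27 with and -0.15 without, with 24 and 4 members. At 400 bases or more they were 0.42 with and 0.13 without, with 34 members and 1. From 50 to under 100 bases the medians were 0.09 with and -0.24 without, with 0 and 5 members. Under 50 bases they were -0.07 with and -0.33 without, with 5 and 4 members.

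**Figure D5:**
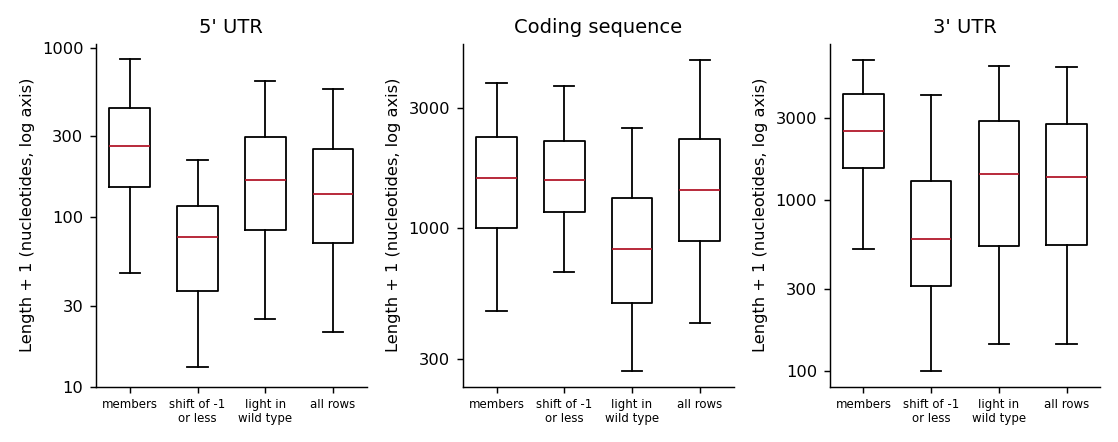
Annotated lengths of the 5′ UTR, the coding region and the 3′ UTR, each plus 1 base, are drawn on log axes as boxes of quartiles with whiskers at the 5th and 95th percentiles, for members, rows with the opposite shift, other light rows of the wild type and all coding rows. Medians of members are 261, 1578 and 2518 bases, against 136, 1416 and 1357 bases in all coding rows.

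The 3′ UTRs of members were long as well, with a median of 2518 bases, against 587 in opposite rows, 1415 in other light rows and 1357 in all coding rows. Coding regions were close to those of all rows, with medians of 1578 and 1416 bases, while other light rows had short ones of 825 bases. Members were thus light in the wild type at a coding length close to that of all rows. Rows with an upstream ATG had the higher median shift in each of 5 classes of 3′ UTR length, by 0.41 against -0.11 from 2000 to under 4000 bases and by 0.40 against -0.12 at 4000 bases or more. The third codon base was G or C in a median of 61.8% of codons in members and 58.8% in all coding rows, and the AU-rich pentamer ATTTA occurred 2.24 and 2.29 times per kilobase of 3′ UTR.

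The 17 coding members with no upstream ATG were ASTN2, SUSD6, SVIP, TMEM200B, CCDC69, IRAK1, ZNF273, ARHGEF6, LDOC1L, C12orf76, C14orf132, HNRNPA1L2, CLDN15, STXBP5, CTIF, MED9 and VAV2. IRAK1, a kinase of Toll-like and interleukin receptors, is the best measured of them, with 1346 counts in the heavy and 1400 in the light polysomes of the labelled knockout, against 849 in the heavy and 2154 in the light polysomes of the wild type. SVIP, an inhibitor of endoplasmic-reticulum-associated degradation, had 7.43 and 17.0 CPM in labelled knockout heavy and light polysomes, against 3.73 and 23.1 CPM in wild type heavy and light polysomes. Its 5′ UTR is 53 bases long, and its shift of 1.32 was among the largest. The highest numbers of upstream ATGs were 18 in ZNF146, 13 in each of NXPE3, DUSP16 and AGPAT6, and 11 in each of B3GNT5 and TMEM74B.

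MicroRNA sites were counted as matches to 7 bases of the 3′ UTR, the complement of the seed, on the sense strand for 20 families. Members held 2.47 sites per kilobase of 3′ UTR, opposite rows 1.79, other light rows 2.11 and all coding rows 2.10. No site was found in 6.30% of members (8) and in 19.1% of all coding rows, and the longer 3′ UTRs of members enter this share. Sites of the miR-17 family, GCACTTT, were in 46.5% of members (59) and 25.6% of all coding rows, at 0.234 and 0.184 per kilobase. Sites of the miR-19 family, TTTGCAC, were in 33.9% of members (43), and those of the miR-26 family, TACTTGA, in 25.2% (32). Per base these were 1.49 and 1.52 times as frequent in members as in all coding rows, against 1.27 for miR-17. Sites of let-7, CTACCTC, were in 15.7% of members and 11.3% of all coding rows, and per base 1.03 times as frequent. Sites of miR-21, ATAAGCT, were per base 0.579 times as frequent. A match of 7 bases is not a tested site, and overlaps between motifs of different families were counted for each.

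Sites of the miR-17 family in the 3′ UTRs of LEPR, KIAA2018 and AREL1, which have large shifts and 800 or more counts, are shown with the match in capitals, 21 bases each.
LEPR: aacacaaGCACTTTtgaaaac
KIAA2018: tgttcctGCACTTTacctgaa
AREL1: ggaaaaaGCACTTTcccttcg

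They lie at chr1:65637623-65637643 on the plus strand for LEPR, chr3:113649706-113649726 on the minus strand for KIAA2018 and chr14:74663088-74663108 on the minus strand for AREL1, on GRCh38. Of 6 short lists of published microRNA targets none had a member, which is 0 of 109 rows that passed beside 1.3% of all rows, too few rows to set the shares apart. The median shifts were 0.22 for let-7 over 35 rows, 0.43 for miR-17 over 21, 0.06 for miR-21 over 17, 0.05 for miR-200 over 14, 0.06 for miR-15/16 over 18 and -0.19 for miR-34 over 16, against 0.00 over all rows by centring. Proteins that process or use microRNAs had 0 members of 27, with a median of 0.09.

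The members were sorted by hand into roles of their proteins after the names were seen, and since the roles of all rows were not counted, the number in a group describes the sorting alone. Of the 140, 23 were placed under transcription and chromatin. Their median shift was 1.10, and their median log2 ratio of labelled knockout over wild type was 0.73 in heavy and -0.45 in light polysomes. Besides KLF4, TET3 and KIAA2018 it held TAF4B, a subunit of the general transcription factor TFIID, with 19.7 and 27.6 CPM in labelled knockout heavy and light polysomes, against 14.5 and 53.1 CPM in wild type heavy and light polysomes. E2F7, a repressor of cell cycle genes, had 32.0 and 22.6 CPM in labelled knockout heavy and light polysomes, against 13.8 and 23.4 CPM in wild type heavy and light polysomes, so that its light level was alike in both genotypes. ATXN1L, a corepressor, had 20.7 and 25.4 CPM in labelled knockout heavy and light polysomes, against 6.31 and 17.1 CPM in wild type heavy and light polysomes. GATA2, SMAD9, AHRR and IKZF5 were further members of this kind, with shifts of 1.14, 1.23, 1.02 and 1.07. An upstream ATG was annotated in 21 of the 23, beside 86.6% of all coding members.

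Zinc finger genes named ZNF gave 9 members of 287 that passed (3.14%), beside 1.3% of all rows, and their median shift was 0.21. ZNF146, a protein made almost wholly of zinc fingers, was the best measured, with 2001 counts in the heavy and 4057 in the light polysomes of the labelled knockout, against 1404 in the heavy and 6624 in the light polysomes of the wild type. ZNF280B had 17.2 and 24.9 CPM in labelled knockout heavy and light polysomes, against 5.30 and 19.6 CPM in wild type heavy and light polysomes. These 2 differ in form: ZNF146 was higher in heavy and lower in light polysomes of the labelled knockout, and ZNF280B was higher in both. ZNF25, ZNF76, ZNF273, ZNF383, ZNF567 and ZNF775 had shifts from 1.02 to 1.24, and ZNF271P, a transcribed pseudogene, had 1.26. Many ZNF genes resemble each other, and how reads that match several were counted is not given in the sources used here.

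Kinases, phosphatases and their subunits gave 13 members, with a median shift of 1.06 and median log2 ratios of labelled knockout over wild type of 0.90 in heavy and -0.28 in light polysomes. MAP3K3, a kinase upstream of stress-activated kinases, had 19.2 and 22.3 CPM in labelled knockout heavy and light polysomes, against 11.4 and 33.1 CPM in wild type heavy and light polysomes. DYRK2, a kinase of the cell cycle and of p53, had 29.9 and 45.4 CPM in labelled knockout heavy and light polysomes, against 12.6 and 42.5 CPM in wild type heavy and light polysomes. CTDSP2, a phosphatase of the RNA polymerase tail, had 50.1 and 62.3 CPM in labelled knockout heavy and light polysomes, against 40.7 and 109 CPM in wild type heavy and light polysomes. The difference of DYRK2 thus lay in heavy and that of CTDSP2 mainly in light polysomes. NUAK1, NLK, CDK19, PDIK1L, KIAA1804, DUSP16 and PIK3CD had shifts from 1.01 to 1.14. Of the 12 members of this group with a coding transcript, 11 had an upstream ATG.

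Members of the ubiquitin pathway numbered 10 and had shifts from 1.03 to 1.33. An upstream ATG was annotated in each of these 10, beside 86.6% of all coding members. RC3H2, a ubiquitin ligase and RNA-binding protein that destabilises mRNAs, had 316 counts in the heavy and 440 in the light polysomes of the labelled knockout, against 129 in the heavy and 506 in the light polysomes of the wild type. AREL1, a HECT-type ligase that inhibits apoptosis, had 958 and 937 counts in labelled knockout heavy and light polysomes, against 434 and 1144 in wild type heavy and light polysomes. USP46, a deubiquitinase, had 806 and 1304 counts in labelled knockout heavy and light polysomes, against 382 and 1555 in wild type heavy and light polysomes. In these 3 the log2 ratios of labelled knockout over wild type in light polysomes were small, at -0.02 in RC3H2, -0.11 in AREL1 and -0.08 in USP46, and turned to 0.11, 0.02 and 0.06 with DESeq2 scaling. The heavy levels differed by more, with log2 ratios of 1.40 in RC3H2 and 1.26 in AREL1. RNF11, NEURL1B, TRIM14, DCAF16, DCUN1D3, KBTBD8 and KLHL29 had shifts from 1.03 to 1.28.

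Regulators and effectors of small GTPases gave 8 members with a median shift of 1.05, and an upstream ATG was annotated in 6 of the 8. RAPGEF1, an exchange factor for Rap1, had 27.7 and 23.1 CPM in labelled knockout heavy and light polysomes, against 15.5 and 32.9 CPM in wild type heavy and light polysomes, so that it was heavy in the labelled knockout and light in the wild type. By library totals VAV2, a guanine nucleotide exchange factor, followed the same form. It had 577 and 287 counts in labelled knockout heavy and light polysomes, against 431 and 483 in wild type heavy and light polysomes. Its wild type heavy to light log2 ratio was only -0.25, and the sign of a ratio that small depends on the scaling. RAB11FIP3, RALGPS1, ARHGEF6, TBC1D9, TBC1D22B and RASSF2 had shifts from 1.01 to 1.15.

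Receptors and ligands gave 8 members with a median shift of 1.08. An upstream ATG was annotated in each, beside 86.6% of all coding members. LEPR, the receptor of leptin, had 184 counts in the heavy and 384 in the light polysomes of the labelled knockout, against 97 in the heavy and 592 in the light polysomes of the wild type. It was among the lightest of the set in both genotypes, at log2 heavy to light ratios of -1.19 and -2.67 in labelled knockout and wild type. PLXND1, a semaphorin receptor, had 26.5 and 17.8 CPM in labelled knockout heavy and light polysomes, against 16.3 and 24.5 CPM in wild type heavy and light polysomes. P2RY2, a receptor for extracellular nucleotides, PTGER4, a receptor for prostaglandin E2, NOD1, a sensor of bacterial peptidoglycan, and GPR153 had shifts of 1.10, 1.01, 1.01 and 1.03.

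Noncoding RNAs and pseudogenes made 11 members. They were lighter than the set as a whole in both genotypes, with medians of -0.75 in the labelled knockout and -2.02 in the wild type, and they were higher in heavy polysomes by a median of 0.50 and lower in light by -0.78 on the log2 scale. OIP5-AS1, also known as cyrano, had 197 counts in the heavy and 365 in the light polysomes of the labelled knockout, against 83 in the heavy and 401 in the light polysomes of the wild type. Transcripts named as antisense, among them OIP5-AS1 and FLVCR1-AS1, had a median shift of 0.44 over the 47 that passed. They gave 3 members (6.38%), beside 1.3% of all rows. Long intergenic transcripts gave 3 of 31 (9.68%), LINC00938, LINC00857 and LINC00963, with a list median of 0.49. Annotated lncRNAs were 5.84% of the matched members (8 of 137, Wilson interval 2.99 to 11.1%) and 1.02% of all matched rows. In the other matched rows that were light in the wild type they were 3.08% (88 of 2859), which lies inside that interval. The strand setting of the counting is not given in the sources used here, so that reads of an antisense transcript and of its partner cannot be told apart where they overlap. ABALON overlaps a gene on the other strand over 91.2% of its exons. Among the other members, ADCY3, TMEM200B, SLC2A11, CHPF2, PDZD8, WWC2, TMEM74B and POPDC3 overlap one over 20.3 to 36.8%, and ABCA11P, P2RY2, AHRR and HNRNPA1L2 share 37.5 to 100% with a gene on the same strand, so that their counts are uncertain.

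Proteins that act on mRNA and its translation gave 2 members, and an upstream ATG was annotated in 1 of the 2. SMG5, a factor of nonsense-mediated decay, a pathway that also degrades some mRNAs with upstream open reading frames, had 611 and 523 counts in labelled knockout heavy and light polysomes, against 508 and 1044 in wild type heavy and light polysomes. CTIF, a factor of translation at the nuclear cap-binding complex, had 328 and 151 counts in labelled knockout heavy and light polysomes, against 306 and 323 in wild type heavy and light polysomes. Both differed mostly in light polysomes.

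Further members outside these groups, with high counts or large shifts, are named here. By library totals each was higher in heavy and lower in light polysomes of the labelled knockout, as were 114 of the 140 members. The choice of members by the shift favours this form. NUPL1, which current annotation names NUP58, a nucleoporin, had 84.6 and 104 CPM in labelled knockout heavy and light polysomes, against 72.5 and 198 CPM in wild type heavy and light polysomes. TSPAN5, a tetraspanin that helps the protease ADAM10 mature, had 84.2 and 122 CPM in labelled knockout heavy and light polysomes, against 44.8 and 141 CPM in wild type heavy and light polysomes. DESI2, a deSUMOylating isopeptidase family protein, had 54.5 and 112 CPM in labelled knockout heavy and light polysomes, against 31.6 and 145 CPM in wild type heavy and light polysomes. PDZD8, a lipid transfer protein of endoplasmic reticulum contacts, and TMCO3 had shifts of 1.02 and 1.03. ATP8B2, a phospholipid flippase, had 12.8 and 13.6 CPM in labelled knockout heavy and light polysomes, against 9.60 and 26.9 CPM in wild type heavy and light polysomes. ADCY3, an adenylyl cyclase, and FAM171A2 had shifts of 1.28 each.

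Of 46 gene lists compared with the set, 14 held a member and 32 held none. The list of integrated stress response and upstream open reading frame mRNAs gave 1 member of 25, ODC1, although its median shift was 0.40. Immediate early genes gave KLF4 of 34, Wnt genes WNT16 of 25, and Hippo genes WWC2 of 26. Membrane proteins gave TMEM45A, TMEM74B, TMEM125, TMEM180 and TMEM200B of 156 TMEM genes and SLC2A11, SLC25A16 and SLC36A1 of 178 solute carriers, which is 3.21% and 1.69% beside 1.3% of all rows. SNHG11, CCDC69, USP46 and RAB11FIP3 were the 1 member each of the snoRNA host, CCDC, deubiquitinase and Rab lists. Several lists that held no member had medians well below 0, with -0.55 for 44 mitotic genes, -0.54 for 33 lysosomal genes, -0.52 for 23 chaperones of the endoplasmic reticulum, -0.52 for 28 cytosolic chaperones and -0.49 for 37 aminoacyl-tRNA synthetases. Their median heavy to light log2 ratios in wild type cells lay between 1.02 and 1.63, opposite in sign to those of the members.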

How the data were processed

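The authors deposited 1 table of whole-number read counts per gene symbol for 4 libraries, not normalised as far as the differing column totals show. Reads were processed with CASAVA, STAR and HTSeq on hg19, per the submitters' processing notes. Versions, gene annotation and strand option were not given in the sources used here. No column was without a sample (0). A count of 0 allows up to 0.143 to 0.172 CPM (3 counts).

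Shifts were computed from counts plus 2 divided by column totals, among rows with 50 or more counts in each library. The 95% intervals take the variance of a count as Poisson. Symbols were matched to GENCODE 44 (GRCh38), 23035 directly and 1369 through RefSeq synonyms, with 1960 of 26364 unmatched. Of the members 137 matched, 129 directly and 8 by an older symbol, and TMEM180, KIAA1804 and LOC642852 did not. Python 3.11.15, numpy 2.4.6, pandas 2.3.3, scipy 1.17.1 and matplotlib 3.10.9 were used. R 4.3.3 with edgeR 4.0.16 (TMM) and DESeq2 1.42.0 (size factors) gave other scalings and no test.

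The members and gene lists were chosen with earlier results of these data known. Named genes were DICER1, the 20 largest shifts with 800 or more counts, the 10 highest count sums, the 5 highest genotype ratios in heavy and the 5 lowest in light polysomes with 800 or more counts, members of 46 lists and the 3 rows on each side of the threshold. The others named were chosen as examples after their values were seen. Some items are not reported here.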

Additional observations from a re-analysis of the deposited data

How the results depend on the processing

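No paired analysis was possible because each group had 1 library, and for the same reason no replicate could be left out. The number of members depended on where the line was drawn. It was 140 as reported, 491 at a threshold of 0.8, 29 at 1.2 and 1 at 1.5. It was 313 with a minimum of 10 counts in each library, 84 with 200, 1110 with no minimum, 215 with a mean of at least 50 and 264 without centring. Measured from the line on the wild type ratio, 22 rows lay at 1 or more, of which 10 were members. With 27.7% of the wild type light library replaced by wild type heavy counts, which gives both genotypes the same median size of ratio, 17 rows lay at 1 or more, of which 6 were members. TMM and DESeq2 scaling left the 140 in place by construction, since a factor per library cancels on centring. They moved the median wild type heavy to light ratio of members from -1.56 to -1.23 and -1.14, and TMM moved that of the labelled knockout from -0.34 to -0.15.

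The share of coding members with an upstream ATG was 86.6%. It was 73.4% at a minimum of 10 counts, 92.6% at 200, 55.8% with no minimum, 91.8% among members with 800 or more counts, 77.3% by the line, 100% at a threshold of 1.5 (1 row) and 52.9% with the mixed library. For the 140 largest distances from the line it was 71.0% (47 shared with the members), and for the 140 largest shifts with the mixed library 63.7% (62 shared). With the longest coding transcript of each gene it was 78.0%, against 41.1% in all coding rows. The median 5′ UTR of 261 bases became 184 with no minimum, 572 at 1.5, 139 with the mixed library and 216 for its 140 largest. The median 3′ UTR of 2518 bases became 2118 at a minimum of 10, 1343 with no minimum, 2040 by the line, 1207 with the mixed library, 1943 for the 140 largest distances from the line and 1742 for the 140 largest with the mixed library. The cause of these moves was not tested. The line, the mixed library and the 140 largest of each were added or extended to sequence features after the data were seen. Of the values for single genes, lists and the median coding length, 730 stayed within their limit and 91 moved beyond it. The limit was the counting interval for single genes and a 1.5-fold change for numbers of members in lists. For the median coding length it was the 95% interval of the median. In 8 of these results, genotype ratios of single genes of at most 0.119 in size on the log2 scale, the sign turned under another scaling or pseudocount, among them RC3H2, AREL1 and USP46 in light and TIGD2 in heavy polysomes. Depth limits the members more than other rows, with a median counting error of 0.37 on the log2 scale against 0.22.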
